A study of Homo sapiens with 2 samples.

Results

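The LIN28, HMGA and IGF2BP genes are 7 oncofetal genes, active in the embryo, largely silent in adult tissues and switched on again in many tumours. They were followed here through every probe set that the platform annotation assigned to LIN28A, LIN28B, HMGA1, HMGA2, IGF2BP1, IGF2BP2 or IGF2BP3 alone, 22 of 54675 probe sets and 7 of 19775 named genes. The group was put together with the array values already known, so its values are given as a description and without a test. Cells carrying pcDNA3.1-IRX1::GFP, a vector for the homeobox transcription factor IRX1 fused to GFP, were compared with cells carrying pcDNA3.1-GFP, a vector for GFP alone (GFP control). Both were HEK293T cells, a human embryonic kidney line that expresses the large T antigen, and both were transiently transfected with polyethylenimine, harvested 48 h later and sorted for GFP, so the model rests on a single line and on short, high expression. The labels name no treatment other than the 2 vectors. RNA of each condition was read from 1 Affymetrix HG-U133 Plus 2.0 array here, while the legend of the study speaks of replicates of this experiment. Whether an array stands for 1 of these replicates or for a pool was not given in the sources used here. Precision is limited by the number of arrays, since 1 per condition leaves no replicate, no error and no test.

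LIN28A and LIN28B are RNA-binding proteins with a cold shock domain and zinc knuckles that hold back the maturation of the let-7 microRNAs. Let-7 in turn represses LIN28B, HMGA2 and the IGF2BP genes through sites in their mRNAs, so that LIN28 and let-7 form a switch between embryonic and differentiated states. HMGA1 and HMGA2 are small chromatin proteins that bind AT-rich DNA through AT-hooks, and the 3 IGF2BP proteins bind mRNAs and protect them from decay.

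The let-7 sequences are shown because they link these genes, although mature let-7 was not measured on these arrays. RefSeq (GRCh38.p14) held 9 different mature sequences of the 5′ arm of the let-7 family, and all shared 1 seed, the bases 2 to 8 by which a microRNA finds its targets. In these 4 examples, written 5′ to 3′, the seed is in capitals.
hsa-let-7a-5p: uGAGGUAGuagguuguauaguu
hsa-let-7b-5p: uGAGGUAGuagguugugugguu
hsa-let-7g-5p: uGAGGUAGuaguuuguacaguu
hsa-miR-98-5p: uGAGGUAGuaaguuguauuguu

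LIN28 proteins are known to grip the precursor at the letters GGAG in its loop. Of 12 hairpins of the family, 9 held GGAG between the 5′ arm and the 3′ arm, or behind the 5′ arm where the table gives no 3′ arm, and the same 4 letters stood anywhere in 43.4% of all 1562 hairpins of the table. The search read the RNA strand of each hairpin as given. The hairpins of let-7a-1 (chr9:94175957-94176036, plus strand) and let-7g (chr3:52268278-52268361, minus strand) held it, in capitals, and those of let-7a-3 (chr22:46112749-46112822, plus strand) and let-7b (chr22:46113686-46113768, plus strand) did not.
hairpin let-7a-1: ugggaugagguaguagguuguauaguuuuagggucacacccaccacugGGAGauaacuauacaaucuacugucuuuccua
hairpin let-7g: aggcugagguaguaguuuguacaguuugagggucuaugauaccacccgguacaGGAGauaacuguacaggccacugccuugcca
hairpin let-7a-3: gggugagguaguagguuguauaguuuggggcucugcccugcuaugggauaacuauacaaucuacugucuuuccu
hairpin let-7b: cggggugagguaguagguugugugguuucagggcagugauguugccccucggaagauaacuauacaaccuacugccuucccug

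The values are MAS5 signals, linear intensities scaled by the authors within each array, with a median of 195 for IRX1::GFP and 171 for the GFP control. Olfactory receptor genes, silent in most cells, set the background, as the 90th percentile of their 107 probe sets, which was 179 for IRX1::GFP and 143 for the GFP control. A signal under it has no measured level, a fold against it is a lower bound, and no fold is given where both signals lie under it. All 9 genes listed as marks of HEK293T cells, among them NEFL, IRS4 and VIM, were above background in the IRX1::GFP array and 7 of 9 in the GFP control, where PAX2 and LHX1 were not. Of 6 fibroblast genes 1 was above background with IRX1::GFP and 3 in the GFP control, with summed signals of 3026 with IRX1::GFP and 1137 in the GFP control. Of 5 blood genes 2 were above it with IRX1::GFP and 3 in the GFP control, with summed signals of 1378 with IRX1::GFP and 899.9 in the GFP control. The largest signal in both fibroblast sums was COL1A1, at 2571 with IRX1::GFP and 631 in the GFP control. In both blood sums it was CD14, at 856 with IRX1::GFP and 327 in the GFP control. No listed marker was at 0. As a sign of RNA quality, the ACTB control probe sets had a 3-prime over 5-prime signal ratio of 1.64 with IRX1::GFP and 3.23 in the GFP control, and those of GAPDH 1.01 with IRX1::GFP and 1.22 in the GFP control. The part of RNA quality in the ratios below was not tested.

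With IRX1::GFP, LIN28B, IGF2BP2 and IGF2BP3 were lower by 2.68-fold to 6.09-fold, IGF2BP1 and HMGA2 were lower by less than 2-fold, and HMGA1 was higher by less than 2-fold. The brightest probe set by mean signal stood for each gene, and the filter on dim probe sets, a mean of at least 183, left 12193 genes. Of the 7 members 6 passed it, and 3 of these, LIN28B, IGF2BP2 and IGF2BP3, were lower by at least 2-fold, with no member as much higher. Over all 12193 genes, the share that was at least 2-fold lower was 5.34% and the share at least 2-fold higher 10.4%. Taken as IRX1::GFP over GFP control, the median log2 ratio was -1.13 for the 6 members and 0.07 for all 12193 genes. By probe set, 7 of the 13 member probe sets past the filter were lower by 2-fold or more and 0 were higher. Over all 27307 probe sets past it, 5.81% were lower and 9.65% higher. Of the 7, 4 belonged to 1 gene, IGF2BP3. Probe sets 241574_s_at of IGF2BP1 and 216493_s_at of IGF2BP3, both among the 7, were under background with IRX1::GFP. They passed the filter only through their GFP control signals. In RNA of many cells, fewer cells that express a gene and less RNA per cell cannot be told apart.

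**Figure D1:**
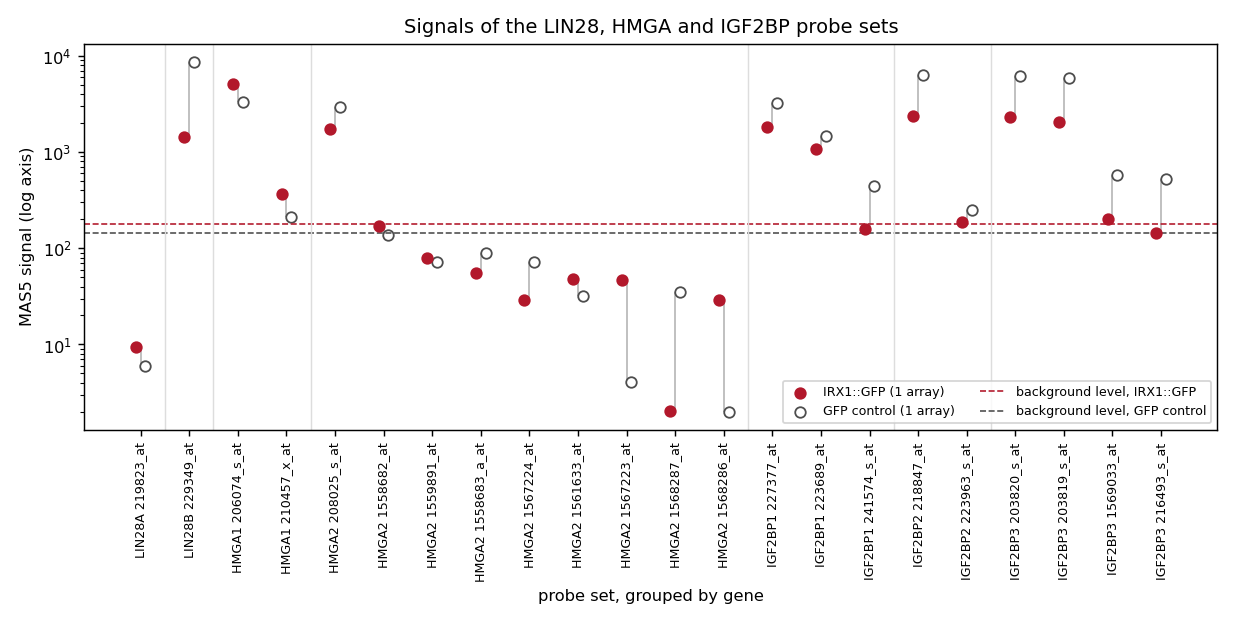
MAS5 signals on a log axis of the 22 probe sets, grouped by gene, in the IRX1::GFP array (red) and the GFP control array (open), with the background level of each array as a dashed line. LIN28A and 8 of 9 HMGA2 probe sets lie under background in both arrays, and all IGF2BP probe sets are lower with IRX1::GFP.

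LIN28B, the family member that also acts in the nucleus, had the largest difference of the 7 genes. Its single probe set read 1436 with IRX1::GFP and 8740.4 in the GFP control, 6.09-fold lower and a log2 ratio of -2.61. Both signals were far above background. Only 28 of 12193 genes had a lower log2 ratio, and 0.533% of all genes were at least 4-fold lower. Median centring, quantile normalization and loess put the log2 ratio of LIN28B between -2.71 and -2.56. The 6 other settings change the filter, the floor or the choice of probe sets and could not move it, as LIN28B is bright and has 1 probe set, so that no second stretch of the transcript was there to compare with it. The antisense transcript LIN28B-AS1 read 129 with IRX1::GFP and 107 in the GFP control, both under background.

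LIN28A, the mainly cytoplasmic paralog and a factor used to reprogram cells to pluripotency, was not above background. Its single probe set read 9.48 with IRX1::GFP and 5.97 in the GFP control, so that no fold is given. On these arrays LIN28B was the LIN28 gene with a measurable signal.

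The 3 genes nearest to LIN28B in log2 ratio and mean signal, over 2 arrays and thus a description only, were ARRDC3, FBXW7 and CHD2. ARRDC3 encodes an arrestin-like protein and read 1297 with IRX1::GFP and 8028 in the GFP control. FBXW7, the substrate receptor of a ubiquitin ligase that acts on MYC and NOTCH proteins, read 1760 with IRX1::GFP and 8169 in the GFP control. CHD2, a chromatin remodeller, read 2016 with IRX1::GFP and 9652 in the GFP control.

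All 9 probe sets of the 3 IGF2BP genes were lower with IRX1::GFP, 6 of them at least 2-fold. Over all 27307 probe sets past the filter, 12920 were lower, and 5.81% were at least 2-fold lower. Of the 6, 4 belonged to IGF2BP3. Among the 6, 241574_s_at of IGF2BP1 and 216493_s_at of IGF2BP3 passed the filter only through their GFP control signals. The 3 IGF2BP genes encode close relatives with RNA recognition motifs and KH domains. These proteins were first described as binding the mRNA of the growth factor IGF2. They are now also known as readers of m6A, a methyl mark on mRNA.

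IGF2BP3 had 4 probe sets. Its brightest probe set, 203820_s_at, read 2291 with IRX1::GFP and 6134 in the GFP control, 2.68-fold lower, and 203819_s_at read 2067 with IRX1::GFP and 5835 in the GFP control. The only IGF2BP3 probe set without a suffix for shared probes, 1569033_at, read 201 with IRX1::GFP and 583 in the GFP control, 2.89-fold lower. The dimmest, 216493_s_at, read 144 with IRX1::GFP, under background, and 524 in the GFP control, at least 2.93-fold lower. All 4 were thus at least 2-fold lower, and the 3 with both signals above background had log2 ratios from -1.53 to -1.42.

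IGF2BP2, the member that persists most in adult tissues, had 2 probe sets that differed in size. The brighter, 218847_at, read 2356 with IRX1::GFP and 6335 in the GFP control, 2.69-fold lower and a log2 ratio of -1.43. The dimmer, 223963_s_at, read 185 with IRX1::GFP and 250.5 in the GFP control, 1.35-fold lower. The dimmer one was close to background with IRX1::GFP, and as the mean over both probe sets the log2 ratio of IGF2BP2 was -0.93, within 2-fold. The antisense transcript IGF2BP2-AS1 was under background on all 4 of its probe sets in both arrays.

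IGF2BP1, the founding member and a largely embryonic protein, was lower on all 3 of its probe sets but within 2-fold on the brighter ones. Probe set 227377_at read 1826 with IRX1::GFP and 3254 in the GFP control, 1.78-fold lower, and 223689_at read 1079.6 with IRX1::GFP and 1480.4 in the GFP control, 1.37-fold lower. The third, 241574_s_at, read 157 with IRX1::GFP, under background, and 446 in the GFP control, at least 2.49-fold lower. The brightest had a log2 ratio of -0.83, and 8.23% of all genes past the filter had one as low or lower. For IGF2BP2 and IGF2BP3 that share was 1.88% and 1.93%.

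**Figure D2:**
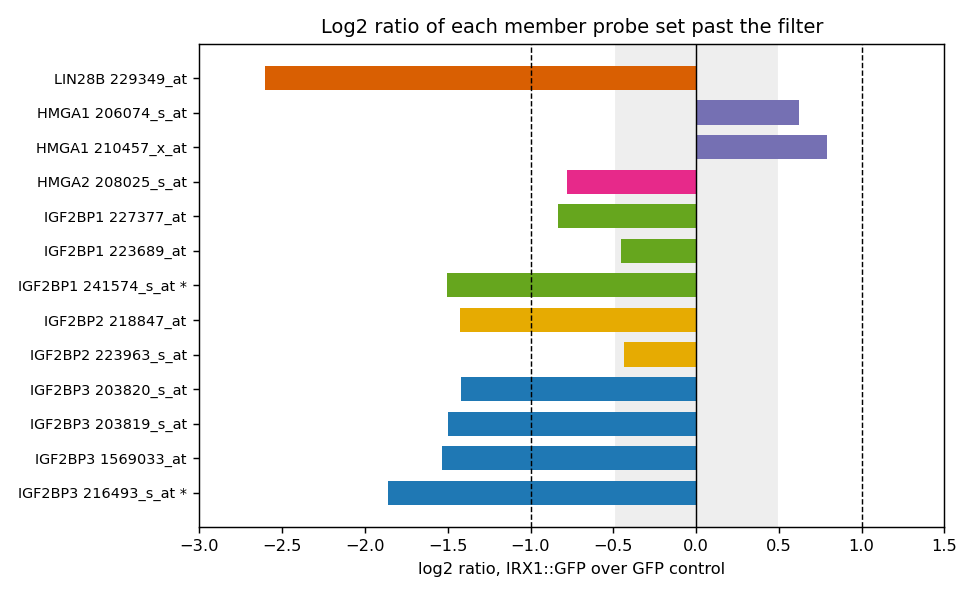
Bars give the log2 ratio (IRX1::GFP over GFP control, 1 array each) for the 13 member probe sets past the filter. Dashed lines stand at 2-fold, the grey band covers 0.49 on each side of 0, the SD between probe sets within 5930 genes, which says nothing of the spread between cultures, and a star marks an IRX1::GFP signal under background, whose fold is only a lower bound. Of the 13 bars, 7 reach beyond 2-fold lower, and only the 2 HMGA1 bars point to higher signals.

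The HMGA genes went opposite ways. HMGA1, a chromatin protein of proliferating cells, read 5105 with IRX1::GFP and 3323 in the GFP control on 206074_s_at, 1.54-fold higher. Its other probe set, 210457_x_at, read 369.7 with IRX1::GFP and 214 in the GFP control, 1.73-fold higher. The 2 log2 ratios, 0.62 and 0.79, differed by 0.17, and 21.2% of all genes past the filter had a log2 ratio as high as that of the brighter one or higher. Both lay within 2-fold.

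HMGA2, the classical let-7 target of embryonic and tumour cells, was measured by 1 of 9 probe sets. Probe set 208025_s_at read 1721 with IRX1::GFP and 2959 in the GFP control, 1.72-fold lower and a log2 ratio of -0.78. The other 8 were under background in both arrays, between 2.05 and 170 with IRX1::GFP and between 1.98 and 137 in the GFP control, so that no fold is given for them. After the 3 scalings and, for HMGA1, averaging of its probe sets, the log2 ratios were 0.51 to 0.71 for HMGA1 and -0.89 to -0.73 for HMGA2. Neither gene has a value past the filter with only probe sets that carry no suffix for shared probes.

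**Figure D3:**
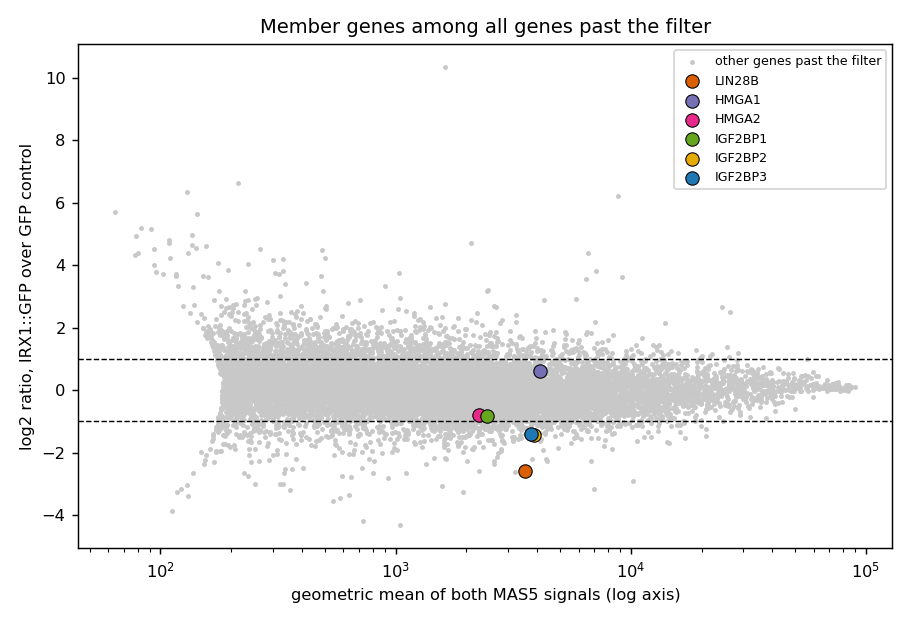
Each grey point is 1 of 12193 genes past the filter, placed by the geometric mean of both signals (x, log axis) and its log2 ratio, IRX1::GFP over GFP control (y), and coloured points are the 6 members past the filter. LIN28B, at -2.61, lies at the lower edge of the genes of its signal, IGF2BP2 and IGF2BP3 lie below the dashed 2-fold line, and HMGA1 lies above 0.

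Promoter windows of 300 bases, from RefSeq (GRCh38.p14), were given for 4 of the 7 members, 7 windows in all. The letters ACANNTGT, the core bound by Drosophila proteins of the Iroquois family, were in none of the 7 and in 5.62% of all 35116 windows. This palindrome was searched on both strands, and its lack says only that these letters are not in these windows. The E-box CACGTG, bound by MYC with its partner MAX and likewise a palindrome, was in 7.26% of all windows and in 2 of the 7, with 2 matches in that of IGF2BP3 and 1 in the downstream one of LIN28B. A match is a description and not a site of binding. These 2 windows are shown because they hold a match, with CACGTG in capitals. They are of LIN28B (chr6:104956857-104957156, plus strand) and IGF2BP3 (chr7:23470442-23470741, minus strand). The other window of LIN28B (chr6:104940715-104941014, plus strand) held no match.
LIN28B: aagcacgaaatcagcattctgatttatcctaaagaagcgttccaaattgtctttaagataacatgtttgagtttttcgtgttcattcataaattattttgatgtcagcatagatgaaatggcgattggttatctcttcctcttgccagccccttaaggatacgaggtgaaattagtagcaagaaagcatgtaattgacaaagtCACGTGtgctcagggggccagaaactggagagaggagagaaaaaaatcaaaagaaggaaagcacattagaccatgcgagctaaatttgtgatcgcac
IGF2BP3: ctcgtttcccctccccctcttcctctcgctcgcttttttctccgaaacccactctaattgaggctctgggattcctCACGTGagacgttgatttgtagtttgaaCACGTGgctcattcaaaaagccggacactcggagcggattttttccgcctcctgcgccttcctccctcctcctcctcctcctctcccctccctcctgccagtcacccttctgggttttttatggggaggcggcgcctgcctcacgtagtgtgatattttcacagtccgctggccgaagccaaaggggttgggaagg

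Most genes of let-7 processing and turnover lay within 2-fold, as did most of all genes. All 24 genes of this list with a named probe set passed the filter. Of these, 1 was at least 2-fold higher and none lower, where 10.4% of all genes were higher and 5.34% lower. Below 0 lay 16 and above it 8, and the median log2 ratio was -0.18, against 0.07 for all genes. The gene past 2-fold was TUT1, a terminal uridylyltransferase, at 872 with IRX1::GFP and 401 in the GFP control. DROSHA, which cuts the primary transcript, read 6518 with IRX1::GFP and 8529.8 in the GFP control, and DICER1, which cuts the hairpin, read 2220 with IRX1::GFP and 3306 in the GFP control. TUT4, which LIN28 recruits to add uridines to the let-7 precursor, read 1223 with IRX1::GFP and 1395 in the GFP control, and DIS3L2, the nuclease that degrades the tailed precursor, read 679 with IRX1::GFP and 611 in the GFP control. All 4 were within 1.5-fold on their brightest probe sets, though 1 of 4 DICER1 probe sets was at least 2-fold lower. TNRC6B and TNRC6A, scaffolds of the silencing complex, were 1.91-fold and 1.54-fold lower on their brightest probe sets, and 2 of 7 TNRC6B and 1 of 3 TNRC6A probe sets were at least 2-fold lower. TENT2, a poly(A) polymerase, was 1.9-fold lower. After median centring 3 genes of the list were past 2-fold.

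Transcripts that host let-7 genes gave few values. WDR82, whose gene holds let-7g, read 9164 with IRX1::GFP and 7069 in the GFP control, and HUWE1, whose gene holds let-7f-2 and miR-98, read 72476 with IRX1::GFP and 70339.5 in the GFP control. Both were within 2-fold. MIR99AHG and MIR100HG were under background on all their probe sets in both arrays, and the brighter MIRLET7BHG probe set read 62.0 with IRX1::GFP and 146 in the GFP control, under and just above background.

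Other known let-7 targets lay on both sides of 0. Among 33 that passed the filter, 3 were higher and 4 lower by 2-fold or more. Over all genes, 10.4% were higher and 5.34% lower. Under the 9 other settings, 1 to 5 of the targets were higher and 3 to 5 lower. Above 0 lay 20 and below it 13, where 6600 of all 12193 genes lay above 0. The median log2 ratio of the targets, 0.09, was close to the 0.07 of all genes. The cell cycle gene CCND1 read 716 with IRX1::GFP and 155 in the GFP control, close to the background of 143, and was 4.62-fold higher. MYCN, an oncogenic transcription factor of neural tumours, read 301 with IRX1::GFP and 80.5 in the GFP control, under background, and was at least 2.1-fold higher. CCND1 and MYCN both passed the filter only through their IRX1::GFP signals, as their GFP control signals were under the filter level of 183. The related DNA-binding proteins ARID3A and ARID3B stood on opposite sides. ARID3A read 4847 with IRX1::GFP and 1323 in the GFP control, 3.66-fold higher, and ARID3B read 712 with IRX1::GFP and 2251 in the GFP control, 3.16-fold lower. MYC read 2354 with IRX1::GFP and 1341 in the GFP control, 1.76-fold higher.

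**Figure D4:**
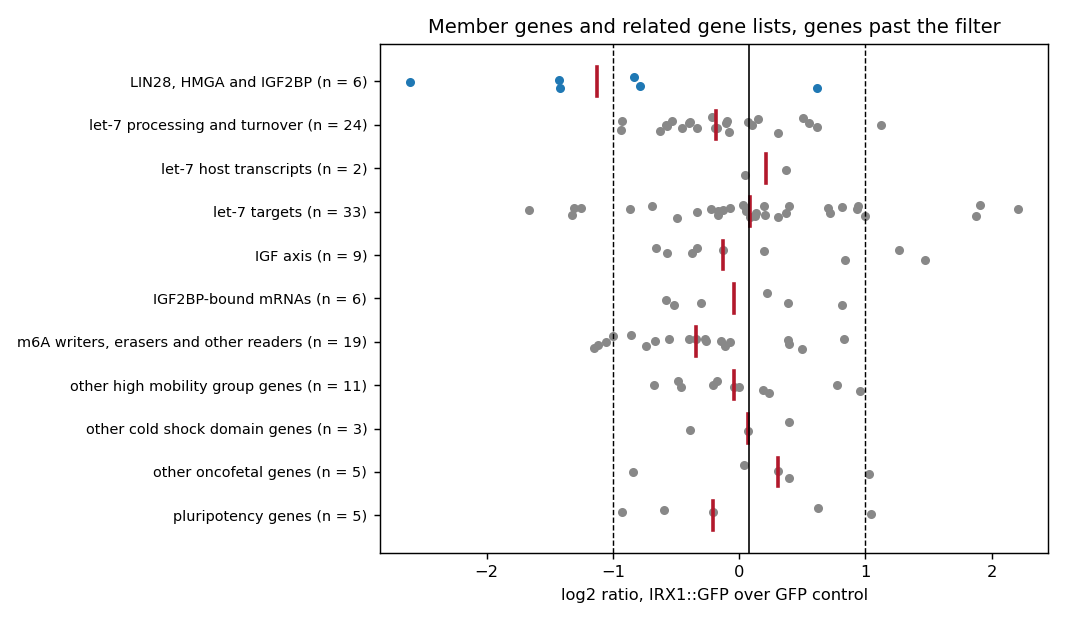
Points show log2 ratios (IRX1::GFP over GFP control) of genes past the filter, for the members (blue) and 10 related gene lists (grey), with red bars at list medians, dashed lines at 2-fold and a solid line at 0.07, the median of all genes. The members' median of -1.13 lies to the left of the medians of the 10 lists, which run from -0.34 to 0.31.

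The IGF axis, from which the IGF2BP family takes its name, held 9 genes past the filter. Of these, 2 were at least 2-fold higher, where the share over all genes was 10.4%, and none was lower, where it was 5.34%, with a median log2 ratio of -0.13. Both higher genes encode secreted proteins that bind IGFs. IGFBP6 read 459 with IRX1::GFP and 166 in the GFP control, 2.77-fold higher. As 166 is under the filter level of 183, IGFBP6 passed the filter only through its IRX1::GFP signal. IGFBP5 read 574 with IRX1::GFP and 238 in the GFP control, 2.41-fold higher. With the filter at the 75th percentile, 0 genes of the IGF axis were past 2-fold. IGFBP2 was 1.79-fold higher, and IRS4, an adaptor of the insulin and IGF receptors that is abundant in HEK293T cells, 1.58-fold lower, both within 2-fold. The receptor genes IGF1R, at 868 with IRX1::GFP and 759 in the GFP control, and INSR, at 1699.6 with IRX1::GFP and 1854 in the GFP control, differed by less than 1.2-fold. IGF2 and H19 were not analysed here.

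None of the 6 mRNAs past the filter among those known to be bound by IGF2BP proteins was past 2-fold. Over all genes the shares were 10.4% higher and 5.34% lower, and the median log2 ratio of the 6 was -0.04. Besides MYC, already given, BTRC, part of a ubiquitin ligase, was 1.49-fold lower and CTNNB1, which encodes beta-catenin, 1.43-fold lower. ACTB, the first zipcode-bearing mRNA described for this family, read 56646 with IRX1::GFP and 43271 in the GFP control.

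Genes that write, erase or read m6A leaned to lower signals. Among 19 that passed the filter, 3 were lower by 2-fold or more and 0 were higher, 15 lay below 0 and 4 above (of all 12193 genes, 5.34% were 2-fold lower, 10.4% 2-fold higher and 5593 below 0), and the median log2 ratio was -0.34. Averaging the probe sets of each gene left 1 of them past 2-fold. ZC3H13, a part of the writer complex, read 1665 with IRX1::GFP and 3689 in the GFP control, 2.22-fold lower. The nuclear reader YTHDC1 read 7157 with IRX1::GFP and 15508 in the GFP control, 2.17-fold lower, and the cytoplasmic reader YTHDF3 read 6841 with IRX1::GFP and 14231 in the GFP control, 2.08-fold lower. Only 2 of 4 YTHDC1 and 1 of 2 YTHDF3 probe sets were past 2-fold. METTL14, of the methyltransferase core, read 1574 with IRX1::GFP and 3143 in the GFP control, just inside the limit. The log2 ratios of its 4 probe sets past the filter ran from -0.997, for this one, to 0.15. On the same arrays the 3-prime over 5-prime ratio of ACTB was 1.64 with IRX1::GFP and 3.23 in the GFP control and that of GAPDH 1.01 with IRX1::GFP and 1.22 in the GFP control, and their part was not tested.

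Genes that share a group name or a domain with the members stayed within 2-fold on their brightest probe sets, as did most of all genes. Of 11 other high mobility group genes, which share with HMGA only the name and the binding of chromatin, none was past 2-fold. Over all genes, 10.4% were higher and 5.34% lower by 2-fold or more. The median log2 ratio of the 11 was -0.04. HMG20B read 957 with IRX1::GFP and 493 in the GFP control, 1.94-fold higher, and HMGB3 was 1.72-fold higher, while HMGN4 was 1.6-fold lower, with 1 of its 3 probe sets past 2-fold. The abundant HMGB1 read 40846 with IRX1::GFP and 46079 in the GFP control. Of the genes that share the cold shock domain with LIN28, YBX1 read 61657 with IRX1::GFP and 58585 in the GFP control, YBX3 was 1.31-fold lower and CARHSP1 1.32-fold higher.

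**Figure D5:**
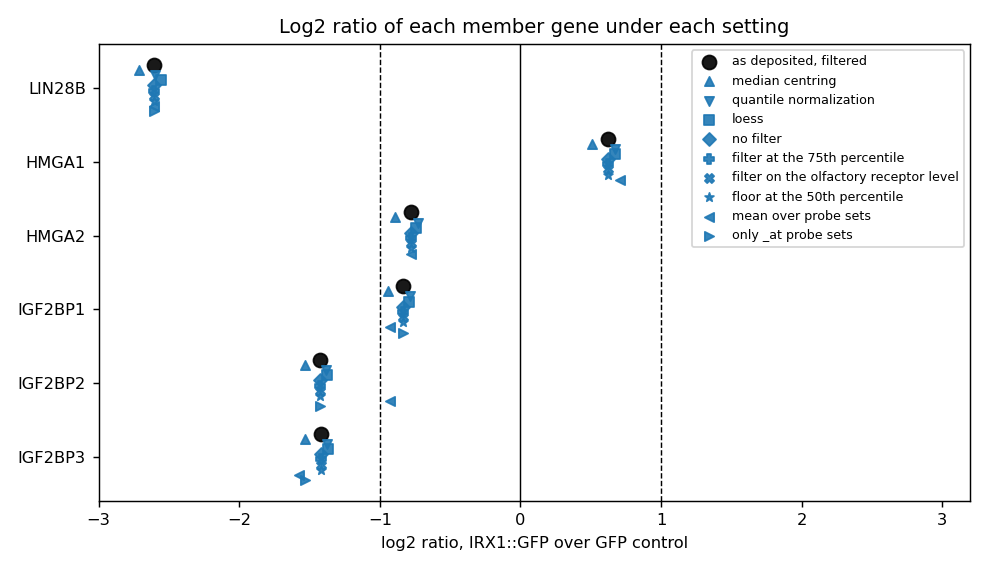
Rows are the 6 members past the filter, placed by log2 ratio (IRX1::GFP over GFP control), with the reported value in black and the 9 other settings in blue, and dashed lines at 2-fold. The other filters and the floor could not move these bright probe sets, no sign changed where a setting gave a value, and only IGF2BP2, at -0.93 as the mean over probe sets, crosses the 2-fold line.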

How the data were processed

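The deposited values were MAS5 intensities (linear scale) for 1 IRX1::GFP and 1 GFP control array. No source used here names the MAS5 version or target value. Trimmed by 2% at both ends, each array averaged 999.9. Probe sets were named from the platform annotation (41091 with 1 symbol besides 6 array controls, updated through RefSeq identifiers for 41037, 1801 with several, 11777 unnamed). The log2 ratio was IRX1::GFP over GFP control, for the brightest probe set of a gene, with a filter at the 50th percentile of mean signal (183) and a limit of 2-fold. No test was possible with 1 array per condition. The 9 alternatives were loess on mean signal (span 0.3), quantile normalization, median centring, 3 other filters, a floor at the median signal, the mean over probe sets, and _at probe sets only. The steps were tested on simulated data in which all planted differences were well past 2-fold, so calls of differences near that limit were not tested. Protein sequences were not used here. The members and the 10 gene lists were chosen with earlier results of these data known. Named genes were all members, up to 4 genes of each list with the largest differences and the 3 genes nearest to LIN28B. DROSHA, DICER1, TUT4, DIS3L2, HMGB1, the listed genes under background and the IGF receptors were named after their values were seen. The tools were pandas 2.3.3, numpy 2.4.6, statsmodels 0.14.6 and matplotlib 3.10.9 in Python 3.11.15.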

Additional observations from a re-analysis of the deposited data

How the results depend on the processing

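No paired analysis was possible because only 1 array stands for a condition, so no array was left out either. Of 176 values recomputed under the alternatives, 157 stayed within the spread between probe sets or within 1.5 times the count, and none of the 52 log2 ratios among them changed sign. Of these 52 log2 ratios, 29 were equal to the reported value. The filters and the floor could not move the bright members. Median centring shifted all log2 ratios down by 0.11. This is less than the spread of 0.49 between probe sets, so the centred log2 ratios were bound to stay within it. The log2 ratio of IGF2BP2 was -0.93 as the mean over probe sets. Member probe sets at least 2-fold lower were 7 in the report. They were 4 with the filter at the 75th percentile and 3 with only _at probe sets, which leave fewer to count. Without a filter they were 9, as the dim HMGA2 probe sets 1567224_at and 1568287_at counted as lower. In that setting 2 other dim HMGA2 probe sets counted as higher. Genes past 2-fold either way moved as follows. Without a filter they were 1 let-7 host transcript, 4 IGF axis genes, 2 IGF2BP-bound mRNAs, 1 other high mobility group gene, 4 other oncofetal genes and 4 pluripotency genes. With the filter at the 75th percentile they were 0 let-7 processing genes, 4 let-7 targets and 0 IGF axis genes. Median centring gave 3 let-7 processing genes and 0 other oncofetal genes, the olfactory receptor filter 1 let-7 host transcript, the mean over probe sets 1 m6A gene, and only _at probe sets 1 other high mobility group gene and 0 pluripotency genes. The causes were not tested. HMGA1 and HMGA2 gave no value with only _at probe sets. Signals near 179 and 143, the background levels of IRX1::GFP and GFP control, limit the dim probe sets.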

Other observations

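Other oncofetal genes were mostly dim in both arrays. Of 13 listed, 5 passed the filter, with 1 of these past 2-fold, a higher signal with IRX1::GFP. Over all genes, 10.4% were 2-fold higher and 5.34% lower. TPBG, an oncofetal surface glycoprotein, read 3299.7 with IRX1::GFP and 1615 in the GFP control, 2.04-fold higher, and was within 2-fold after median centring. PLAG1, a zinc finger gene known to act downstream of HMGA2, read 496 with IRX1::GFP and 890.3 in the GFP control, 1.8-fold lower. TRIM71, a let-7 target that keeps stem cells undifferentiated, read 680 with IRX1::GFP and 518 in the GFP control, and PLAGL2 was 1.24-fold higher, both within 2-fold. DLK1, MEST, PEG3, SALL4, ALPP and CEACAM5 were under background on all their probe sets in both arrays.

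Of 13 pluripotency genes listed, 11 had a named probe set and 5 passed the filter. POU5F1 and TDGF1 had no probe set named for them alone, so no value is given for them. KLF4 read 2664 with IRX1::GFP and 1289.9 in the GFP control, 2.06-fold higher, and SOX2 read 852 with IRX1::GFP and 1625 in the GFP control, 1.91-fold lower. DNMT3B, a DNA methyltransferase of early embryonic cells, was 1.54-fold higher, and ESRRB, under background with IRX1::GFP, at least 1.24-fold lower. NANOG, DPPA4, PRDM14, L1TD1 and ZFP42 were under background on all their probe sets in both arrays, as LIN28A was.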
